A study of Mus musculus with 6 samples.

Results

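The tumour necrosis factor (TNF) superfamily was followed in the spleen of female NOD mice, which become diabetic of their own accord through autoimmunity. Its members were taken by gene symbol from the deposited table of array values: every symbol starting with Tnfsf or Tnfrsf and a digit, and Tnf, Lta, Ltb, Ltbr, Cd40, Cd27 and Fas, with Tnfrsf4, Tnfrsf9 and Tnfrsf18 left out. This gave 46 probes of 30 genes, out of 31692 probes of 20902 genes in the table. Among the 30 genes were 10 ligands, 19 receptors and 1 antisense RNA, Tnfsf13os. All 46 probes were well above background on all 6 arrays, as were 31688 to 31692 of the 31692 probes of the table on each array. The rule used symbols and no difference between the groups, but it reads only genes of the deposited table. Some genes of the family have no probe there, among them Tnfsf13 and 5 genes found in the scanner output.

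Ligands of this family are mostly membrane proteins that act as trimers, on the cell surface or after release, and each binds 1 or a few receptors with cysteine-rich outer domains. Some receptors carry a death domain and can start cell death, and others bind TRAF adaptors and lead to NF-kB. In the spleen, lymphotoxin from lymphocytes acts through its receptor on stromal cells to keep the white pulp in order. The ligand BAFF keeps mature B cells alive, and several receptors of the family costimulate T cells.

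The mice came at 6 weeks of age and had a daily intraperitoneal injection of MOTS-c, a peptide whose reading frame lies in the mitochondrial genome, at 0.5 mg/kg/day, or of a scrambled MOTS-c peptide as vehicle. The spleens of both groups were collected from mice 18 weeks old that had fasted for 16 to 18 h. Each group had 3 arrays, called here MOTS-c 1 to 3 and vehicle 1 to 3, each read in 1 colour with Cy3-labelled RNA of whole spleen. Whether each sample is a mouse of its own is not stated in the labels, and p-values therefore reflect the spread of these samples alone, which may be technical. MOTS-c 1 to 3 and vehicle 3 lay on 1 slide, slide 2, and vehicle 1 and 2 on slide 1. Slide 1 therefore holds vehicle samples only, and a slide difference is partly shared with the treatment difference.

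Values are log2 of the array signal after quantile normalization by the authors, so a difference of 1 is 2-fold. Each gene is read by its brightest probe, differences are MOTS-c minus vehicle, and adjusted p-values come from limma with Benjamini-Hochberg adjustment over all 31692 probes. A level compares arrays for 1 probe and never 1 gene with another. The arrays held 61.8% to 64.0% of spots well above background and 0 saturated spots, and with 3 arrays a group their number limits the precision. Vehicle 1 stood apart: it was the lowest of the 6 arrays for 32.9% of all genes of the table and the highest for 28%. Its 75th percentile of signal was 678, against 841.1 to 925.5 on the other arrays. The main differences are therefore also given without vehicle 1.

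The labelled tissue was checked on marker lists. All 8 listed B cell markers and all 8 T cell markers were in the table, as were all 8 markers of red cell precursors, which mouse spleen also holds. Of 6 listed pancreas enzymes, 4 were in the table, and their summed signal was 4716 to 9054 on the MOTS-c arrays, against 6571 to 116229 on the vehicle arrays, with the highest value on vehicle 3. The part of pancreas RNA on vehicle 3 in the results was not tested, and without vehicle 3 the median difference over the 30 family genes was 0.51.

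With MOTS-c, 25 of the 30 family genes had a higher mean, as did 54.6% of all genes, and 5 had a lower one. The median difference was 0.41 on the log2 scale, beside 0.04 over all genes of the table, and single genes ran from -0.90 for Tnfrsf21 to 1.50 for Ltb. At an adjusted p under 0.05, limma called 0 of the 30 genes, as it called 0 of all 31692 probes (0%), of which 8198 (25.9%) had an unadjusted p under 0.05, and the smallest adjusted p of a family gene was 0.102. At an unadjusted p under 0.05 stood 11 of the 30 genes (36.7%), 9 higher and 2 lower, against 25.6% of all genes, of which 12.5% were higher and 13.1% lower. All MOTS-c arrays lay above all vehicle arrays for 11 family genes (36.7%), against 18.3% of all genes, and below them for 2, against 16.4% of all genes. The difference between family and other genes was not tested. Fewer cells of a type and less RNA per cell cannot be told apart in whole spleen.

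These counts moved with single arrays of both groups. Without vehicle 2, limma called 772 of all probes (2.44%) and 1 family gene, Tnfrsf14, and without vehicle 3 it called 39 probes (0.123%) and 0 family genes. Leaving out each array in turn gave 4 to 14 family genes at an unadjusted p under 0.05. The lowest count, 4 of 30, came without MOTS-c 2, against 18% of all probes, and the highest, 14 of 30, without vehicle 2, against 29.6% of all probes. Without MOTS-c 3 it was 5 of 30, against 15.1% of all probes, and without MOTS-c 1 it was 7 of 30, against 18.3%. With slide as a block it was 3 of 30, against 9.83% of all probes, so the family's share was near that of all probes there. Without vehicle 2, all MOTS-c arrays lay above the remaining vehicle arrays for 17 family genes, against 28.2% of all genes. Leaving out an array can keep or raise such a count but cannot lower it.

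Much of the size of these differences rested on vehicle 1. It was the lowest array for 22 of the 30 genes (73.3%) and the highest for 3, against 32.9% and 28% of all genes. Without it, the median difference of the family was 0.22, beside 0.04 over all genes, and 28 of the 30 differences were smaller in size. The share of all genes with a smaller difference was not computed. The groups without vehicle 1 did not overlap for 13 genes, 11 above and 2 below, against 20.3% and 17.4% of all genes. These counts could not fall when an array was left out, so they do not show persistence. They were the same with all arrays, where the shares of all genes were 18.3% and 16.4%. At an unadjusted p under 0.05 without vehicle 1 stood 4 genes higher and 2 lower, against 8.53% and 9.8% of all genes. Within slide 2, where 3 MOTS-c arrays met vehicle 3 alone, the median was 0.32, beside 0.06 over all probes. There 26 of the 30 genes had a higher mean, and the share of all genes is not given. Every value within slide 2 thus rests on vehicle 3, the array with the highest pancreas enzyme signal, as its only vehicle array.

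**Figure D1:**
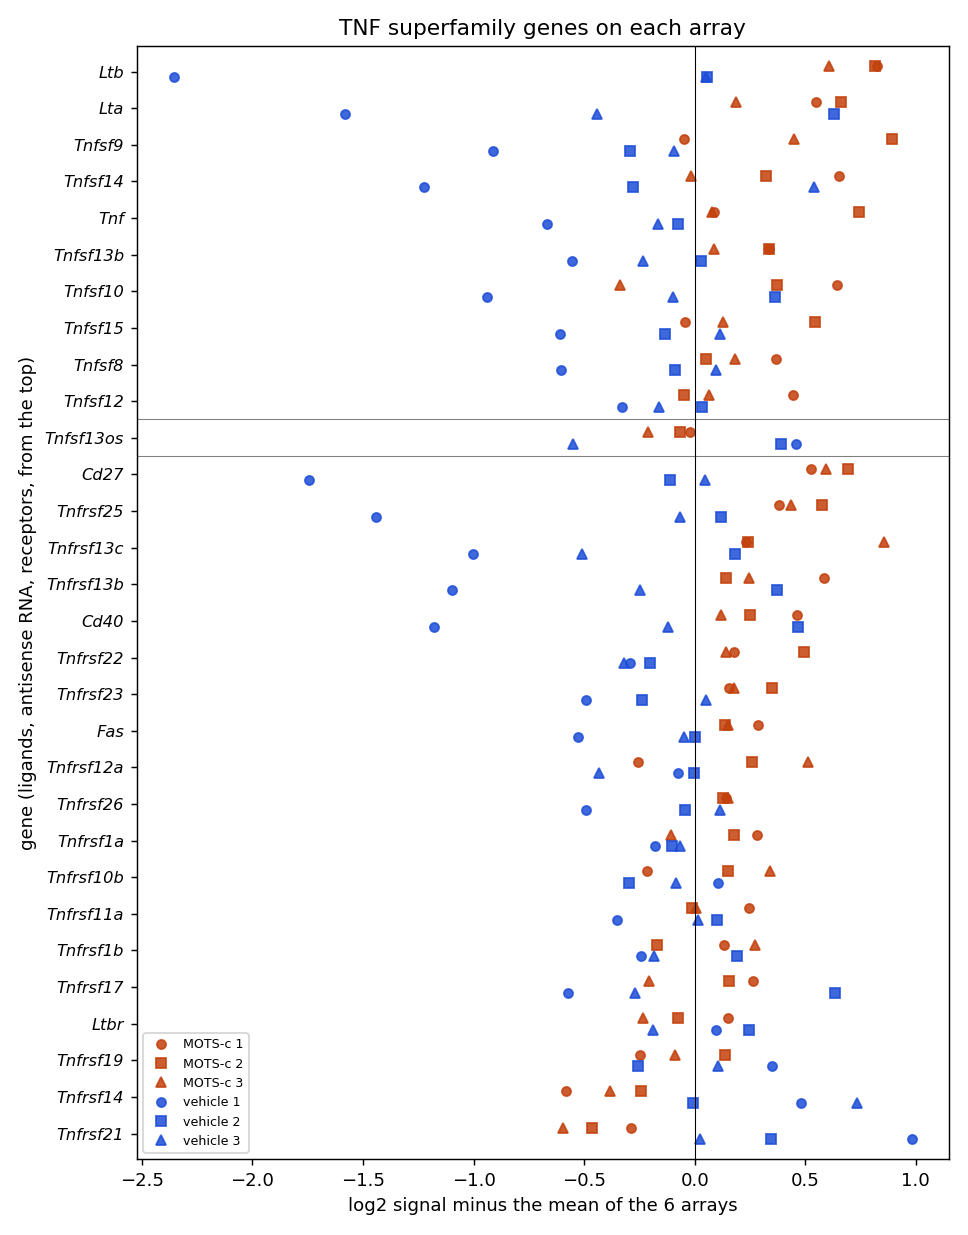
Log2 signal of each of the 30 family genes on each array as the deviation from the gene's mean over the 6 arrays (horizontal axis), with the MOTS-c arrays in orange just above the vehicle arrays in blue. Vehicle 1 is the lowest array for 22 genes, and Tnfrsf14 and Tnfrsf21 are lower on all MOTS-c arrays than on all vehicle arrays.

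The plot of deviations by array shows the ligands as the more even group. All 10 ligands had a higher mean with MOTS-c, 4 of them on all 3 arrays above all vehicle arrays, against 18.3% of all genes, and vehicle 1 was the lowest array for all 10. Their median difference was 0.56, and 0.29 without vehicle 1. With Tnfsf13os, an RNA antisense to the gene of the ligand APRIL, counted among the symbols that start with Tnfsf, the median was 0.51. The 19 receptors were less even, with 15 higher and 4 lower, a median of 0.28, and 0.20 without vehicle 1.

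The genes of lymphotoxin and TNF lie side by side on chromosome 17, and all of them had a higher mean with MOTS-c. On mm9, the probe of Ltb is at chr17:35333097-35333156, that of Tnf at chr17:35336967-35337026 and that of Lta at chr17:35340275-35340334, 3811 and 3249 bases apart. The 250 bases before the start of each gene are shown because these neighbours all had a higher mean. They are RefSeq sequences of GRCm38.p6, 5′ to 3′ on the strand of the gene, at chr17:35194257-35194506 (plus strand) for Ltb, chr17:35202008-35202257 (minus strand) for Tnf and chr17:35205352-35205601 (minus strand) for Lta. Capitals mark a match to the NF-kB consensus, which was searched on both strands.
Ltb: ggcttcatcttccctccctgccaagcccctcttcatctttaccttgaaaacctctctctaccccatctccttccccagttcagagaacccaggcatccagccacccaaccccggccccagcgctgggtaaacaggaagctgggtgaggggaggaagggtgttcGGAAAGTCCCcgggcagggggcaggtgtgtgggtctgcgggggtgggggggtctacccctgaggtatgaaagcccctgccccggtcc
Tnf: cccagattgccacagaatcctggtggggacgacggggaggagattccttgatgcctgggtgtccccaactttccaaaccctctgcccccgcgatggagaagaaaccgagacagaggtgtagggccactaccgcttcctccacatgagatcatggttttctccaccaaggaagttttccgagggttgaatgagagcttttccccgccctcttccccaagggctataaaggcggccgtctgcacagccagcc
Lta: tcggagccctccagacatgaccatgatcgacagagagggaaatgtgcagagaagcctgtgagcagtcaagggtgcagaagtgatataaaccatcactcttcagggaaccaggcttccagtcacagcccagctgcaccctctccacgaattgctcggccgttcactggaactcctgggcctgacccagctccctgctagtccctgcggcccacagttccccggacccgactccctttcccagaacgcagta
The Ltb window held 1 match, on the minus strand, with its first base 87 bases before the start, and the windows of Tnf and Lta held none with these letters. RefSeq windows were found for 23 of the 30 family genes, in 26 promoters, and Ltb was the only gene with a match. Of all 32851 promoter windows of the table, 1281 (3.9%) held a match.

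Ltb encodes lymphotoxin beta, which holds lymphotoxin on the membrane of lymphocytes. Log2 values of Ltb were 15.32, 15.32 and 15.11 on the MOTS-c arrays, against 12.14, 14.55 and 14.55 on the vehicle arrays. All MOTS-c arrays lay above all vehicle arrays, with vehicle 1 far below the other two vehicle arrays. The mean was 2.83-fold higher (1.50 ± 0.62 SE), with a limma adjusted p of 0.184, and the difference was 0.70 without vehicle 1 and 0.70 within slide 2.

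Tnf, the cytokine that gave the family its name, is made by macrophages and activated lymphocytes. The MOTS-c arrays 1 to 3 gave Tnf values of 6.63, 7.29 and 6.62, against 5.88, 6.47 and 6.38 on vehicle arrays 1 to 3. The groups did not overlap, and MOTS-c 2 was the highest array. The difference was 0.61 ± 0.24 SE, 1.52-fold, with an adjusted p of 0.178 by limma, and 0.42 without vehicle 1 and 0.47 within slide 2. It was 0.39 with normexp background correction, and also 0.39 without MOTS-c 2. Lta encodes lymphotoxin alpha, which is secreted or joins lymphotoxin beta on the membrane. On MOTS-c 1 to 3, Lta stood at 9.07, 9.19 and 8.71, against 6.95, 9.16 and 8.09 on vehicle 1 to 3. Vehicle 2 lay among the MOTS-c arrays, so the groups overlapped, at a difference of 0.93 ± 0.50 SE (limma, adjusted p 0.277) and of 0.37 without vehicle 1 and 0.91 within slide 2.

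Tnfsf9 encodes the ligand of a costimulatory T cell receptor and is made by antigen-presenting cells. Tnfsf9 read 7.03, 7.97 and 7.52 on the MOTS-c arrays, against 6.16, 6.78 and 6.98 on the vehicle arrays. Every MOTS-c array lay above every vehicle array, though MOTS-c 1 did so by little. The difference was 0.86 ± 0.30 SE, 1.82-fold (limma, adjusted p 0.143), and 0.62 without vehicle 1 and 0.52 within slide 2. It was 0.57 with normexp background correction.

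Tnfsf13b encodes BAFF, the survival factor of mature B cells. Its brightest probe gave 8.77, 8.77 and 8.52 on the MOTS-c arrays, against 7.88, 8.46 and 8.20 on the vehicle arrays. The groups did not overlap, and the difference was 0.51 ± 0.18 SE (limma, adjusted p 0.152), or 0.36 without vehicle 1 and 0.49 within slide 2. The other probes of the gene did not show the same difference. A dimmer probe had a difference of 0.02. The dimmest, designed to a predicted transcript, gave 5.28, 5.39 and 5.07 on the MOTS-c arrays, against 5.61, 5.50 and 5.64 on the vehicle arrays. All 3 MOTS-c arrays were thus below all vehicle arrays on that probe, at -0.33 ± 0.14 SE.

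Tnfsf14 encodes LIGHT, a T cell ligand of both Tnfrsf14 and the lymphotoxin beta receptor. Tnfsf14 had 9.73, 9.40 and 9.06 on MOTS-c 1 to 3, against 7.85, 8.80 and 9.62 on vehicle 1 to 3. Vehicle 3 was among the highest arrays and vehicle 1 the lowest, so the groups overlapped. The difference of 0.64 became 0.19 without vehicle 1 and -0.22 within slide 2.

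Tnfsf10 encodes TRAIL, which can trigger apoptosis. Its brighter probe gave 9.05, 8.78 and 8.07 on the MOTS-c arrays, against 7.47, 8.77 and 8.31 on the vehicle arrays, and vehicle 2 and 3 lay within the MOTS-c range. The difference was 0.45, and 0.09 without vehicle 1 and 0.32 within slide 2. The second probe gave 6.78, 6.92 and 6.51 on the MOTS-c arrays, against 6.76, 6.57 and 6.94 on the vehicle arrays, a difference of -0.03 with overlapping groups.

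Tnfsf12 encodes TWEAK, a ligand made by macrophages among other cells. Log2 values of Tnfsf12 were 7.97, 7.47 and 7.58 on the MOTS-c arrays, against 7.19, 7.55 and 7.36 on the vehicle arrays. The groups overlapped through vehicle 2, at a difference of 0.31 ± 0.18 SE. Tnfsf15, the ligand of Tnfrsf25, differed by 0.42 and Tnfsf8, the ligand of the receptor CD30, by 0.40, both with overlapping groups. Without vehicle 1 these differences were 0.22 for Tnfsf15 and 0.20 for Tnfsf8, and within slide 2 they were 0.09 and 0.11. A second probe of Tnfsf8 gave 0.69 ± 0.23 SE, without overlap. Tnfsf13os differed by -0.20, with overlap, and by 0.45 within slide 2, where the sign turned.

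**Figure D2:**
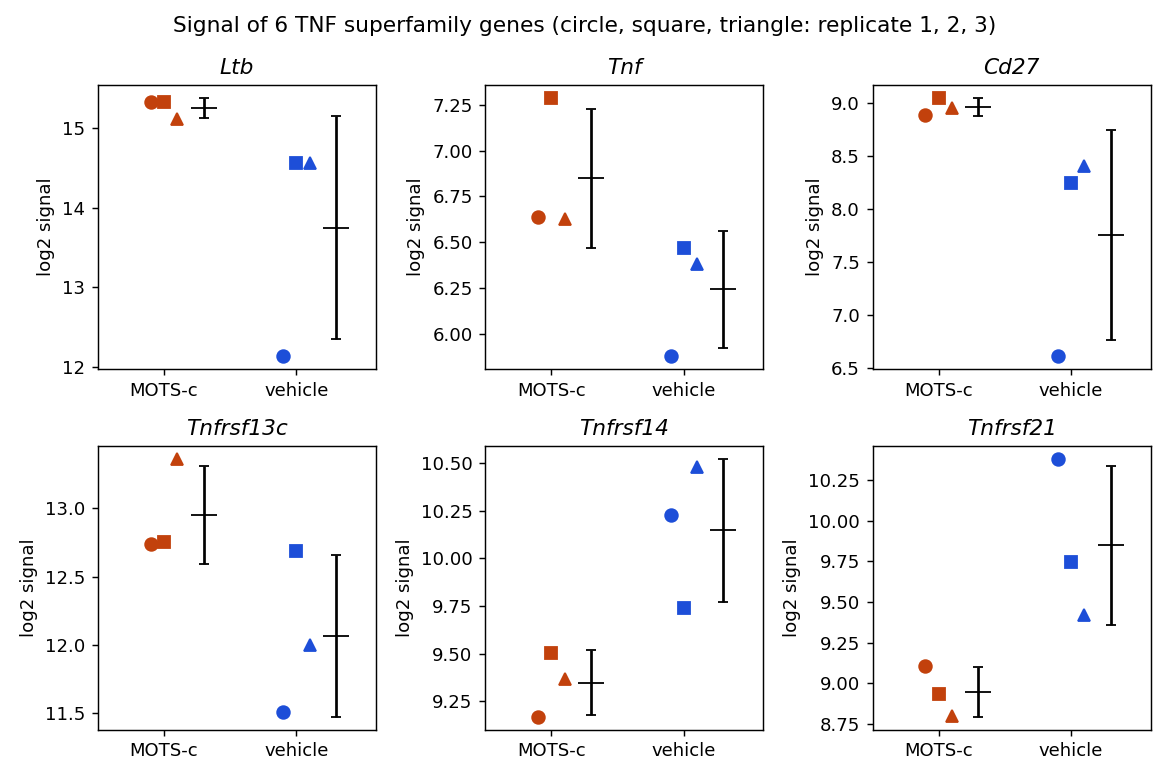
Log2 signal (vertical axis) of 6 family genes on each array, MOTS-c left of vehicle, with each group's mean and SD (n = 3) beside its points. Ltb and Cd27 have all MOTS-c arrays above all vehicle arrays and a low vehicle 1, while Tnfrsf14 and Tnfrsf21 have all MOTS-c arrays below all vehicle arrays.

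Among the receptors, the 2 with a lower mean and no overlap between groups had the smallest and the third smallest p of the family. Tnfrsf14 encodes HVEM, a receptor on many leukocytes that binds LIGHT and also the inhibitory receptor BTLA. Its brighter probe gave 9.17, 9.51 and 9.37 on the MOTS-c arrays, against 10.23, 9.74 and 10.48 on the vehicle arrays. All MOTS-c arrays lay below all vehicle arrays, and vehicle 2 was the nearest to them. The mean was 1.74-fold lower (-0.80 ± 0.21 SE), with an adjusted p of 0.102 by limma. It was -0.76 without vehicle 1 and -1.13 within slide 2. Its second probe gave 7.23, 7.65 and 7.44 on the MOTS-c arrays, against 8.13, 7.82 and 8.38 on the vehicle arrays, again without overlap, at -0.67 ± 0.19 SE. Without vehicle 2 the brighter probe passed the threshold, at -1.01 (limma, adjusted p 0.0495).

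Tnfrsf21 encodes DR6, a receptor with a death domain that is also made in nerve cells. Its brighter probe gave 9.11, 8.93 and 8.80 on the MOTS-c arrays, against 10.38, 9.74 and 9.42 on the vehicle arrays. The groups did not overlap, and vehicle 1 was the highest array. The mean was 1.87-fold lower (-0.90 ± 0.25 SE), with an adjusted p of 0.108 by limma, and the difference was -0.63 without vehicle 1 and -0.47 within slide 2. The second probe gave 6.47, 6.29 and 6.23 on the MOTS-c arrays, against 7.90, 6.85 and 6.83 on the vehicle arrays, at -0.86 ± 0.29 SE, and did not overlap either.

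Tnfrsf22, Tnfrsf23 and Tnfrsf26 form a cluster on mouse chromosome 7, and their probes on mm9 are 27197 and 30409 bases apart from Tnfrsf26 to Tnfrsf22 to Tnfrsf23. In the mouse, Tnfrsf22 and Tnfrsf23 encode decoy receptors that bind TRAIL without passing on a death signal. The MOTS-c arrays 1 to 3 gave Tnfrsf22 values of 6.07, 6.38 and 6.03, against 5.60, 5.69 and 5.57 on vehicle arrays 1 to 3. The 3 vehicle arrays lay close together and all MOTS-c arrays above them, at 0.54 ± 0.15 SE (1.46-fold, limma adjusted p 0.104). With normexp background correction it was 0.21. With the deposited values it was 0.53 without vehicle 1 and 0.59 within slide 2. On MOTS-c 1 to 3, Tnfrsf23 stood at 8.36, 8.55 and 8.38, against 7.71, 7.96 and 8.25 on vehicle 1 to 3. The groups were apart by little, at 0.46 ± 0.17 SE (limma, adjusted p 0.162), and at 0.32 without vehicle 1 and 0.18 within slide 2. Tnfrsf26 also had no overlap, but MOTS-c 2 at 7.892 lay barely above vehicle 3 at 7.876. Its difference was 0.28 (limma, adjusted p 0.346), and 0.10 without vehicle 1 and 0.03 within slide 2. Tnfrsf26 was given after its values were seen.

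Cd27 encodes a receptor of T cells, NK cells and memory B cells that is bound by CD70. Cd27 read 8.88, 9.05 and 8.95 on the MOTS-c arrays, against 6.61, 8.25 and 8.41 on the vehicle arrays. The MOTS-c arrays lay close together above all vehicle arrays, and vehicle 1 was the lowest. The mean was 2.31-fold higher (1.21 ± 0.45 SE; limma, adjusted p 0.157), and the difference was 0.64 without vehicle 1 and 0.56 within slide 2. Tnfrsf25 encodes DR3, a death domain receptor that costimulates T cells. Tnfrsf25 had 10.95, 11.15 and 11.01 on MOTS-c 1 to 3, against 9.13, 10.69 and 10.51 on vehicle 1 to 3. Again the groups did not overlap and vehicle 1 was far below the rest, at 0.93 ± 0.39 SE (1.90-fold; limma, adjusted p 0.191) and 0.44 without vehicle 1 and 0.53 within slide 2. The 8 listed T cell markers had a median difference of 1.04, or 0.56 without vehicle 1, and were also lowest on vehicle 1 on average. Their part in these differences was not tested.

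Receptors of B cells had higher means too. Tnfrsf13c encodes the BAFF receptor. Log2 values of Tnfrsf13c were 12.74, 12.75 and 13.37 on the MOTS-c arrays, against 11.51, 12.69 and 12.00 on the vehicle arrays. MOTS-c 3 was the highest array, and vehicle 2 came closest to the MOTS-c arrays without overlap. The difference was 0.89 ± 0.32 SE, 1.85-fold (limma, adjusted p 0.153), and 0.61 without vehicle 1 and 0.95 within slide 2. Its dimmer probe differed by 0.63, with overlap. Tnfrsf13b encodes TACI, which binds BAFF and APRIL. The MOTS-c arrays 1 to 3 gave Tnfrsf13b values of 13.19, 12.74 and 12.85, against 11.51, 12.98 and 12.36 on vehicle arrays 1 to 3. Vehicle 2 lay within the MOTS-c range, at a difference of 0.65, and of 0.26 without vehicle 1 and 0.57 within slide 2. The 8 listed B cell markers had a median difference of 0.76, or 0.32 without vehicle 1, and their part in these differences was not tested.

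Tnfrsf17 encodes BCMA, the receptor of plasma cells for the same ligands. On MOTS-c 1 to 3, Tnfrsf17 stood at 7.36, 7.25 and 6.89, against 6.52, 7.73 and 6.83 on vehicle 1 to 3. The highest array was vehicle 2 and the lowest vehicle 1, and the difference of 0.14 was -0.11 without vehicle 1 and 0.34 within slide 2. Cd40 encodes the receptor by which helper T cells activate B cells. Cd40 read 8.89, 8.68 and 8.55 on the MOTS-c arrays, against 7.25, 8.90 and 8.31 on the vehicle arrays. Vehicle 2 was the highest array and vehicle 1 the lowest, at a difference of 0.56 that was 0.10 without vehicle 1 and 0.40 within slide 2.

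**Figure D3:**
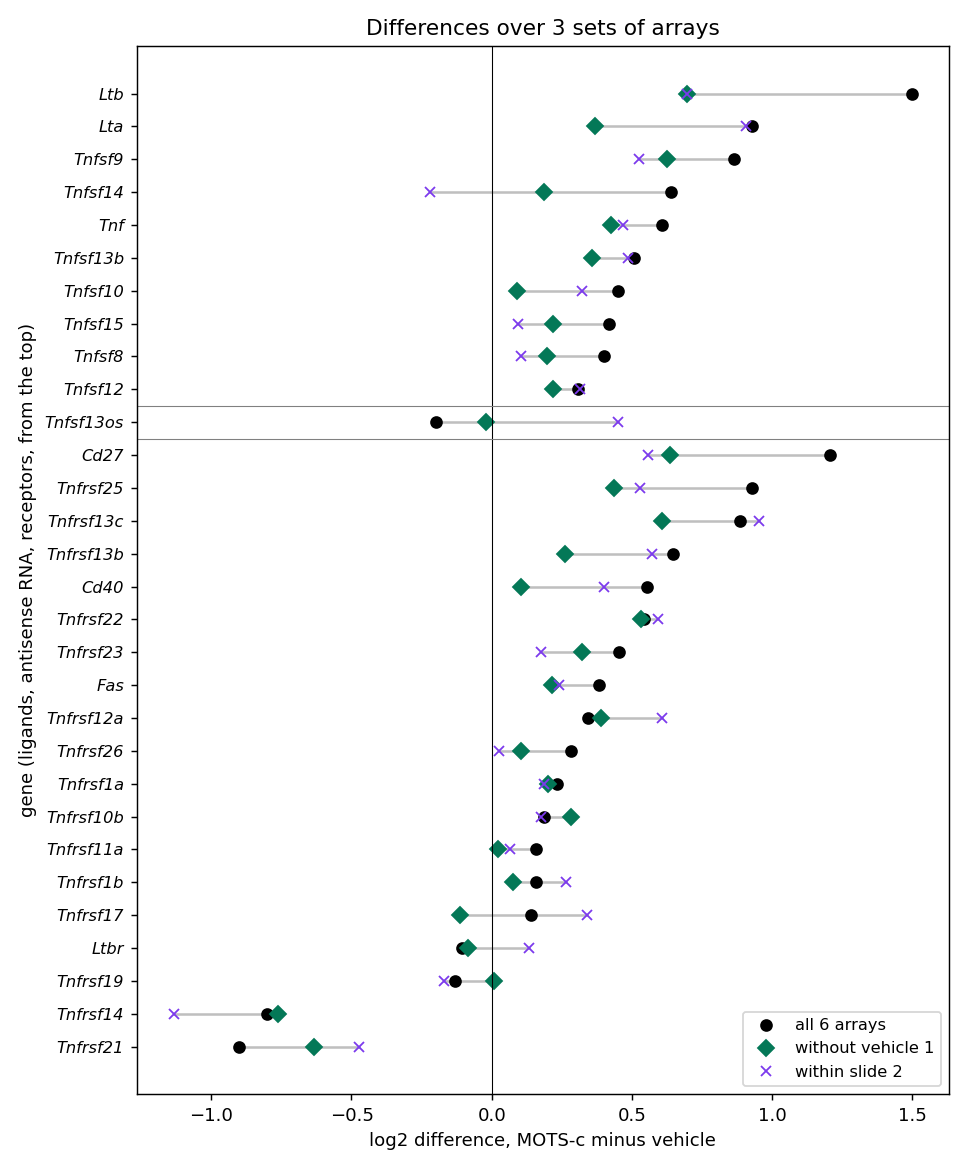
Log2 difference, MOTS-c minus vehicle, of each of the 30 genes (rows) with all arrays (circles), without vehicle 1 (diamonds), and within slide 2 (crosses). For 28 of the 30 genes the difference without vehicle 1 is smaller in size than with all arrays, a share not computed for all genes. Tnfrsf14 and Tnfrsf22 are among those that keep most of their size, and Tnfrsf10b and Tnfrsf12a have larger differences.

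The receptors for TNF and lymphotoxin themselves had smaller differences in their means than their ligands, a contrast that was not tested. Tnfrsf1a encodes the broadly expressed death domain receptor of TNF. Tnfrsf1a had 12.55, 12.44 and 12.16 on MOTS-c 1 to 3, against 12.09, 12.16 and 12.20 on vehicle 1 to 3. The groups overlapped, at 0.23, and its second probe differed by 0.00. Tnfrsf1b encodes the other TNF receptor, found mostly on leukocytes. Its brighter probe gave 9.77, 9.47 and 9.92 on the MOTS-c arrays, against 9.40, 9.83 and 9.46 on the vehicle arrays, with overlap and a difference of 0.16. The second probe gave 8.03, 8.0 and 8.10 on the MOTS-c arrays, against 8.44, 8.09 and 8.18 on the vehicle arrays, with overlap, at -0.19. Ltbr encodes the lymphotoxin beta receptor of stromal and myeloid cells. Log2 values of Ltbr were 10.76, 10.53 and 10.37 on the MOTS-c arrays, against 10.70, 10.85 and 10.42 on the vehicle arrays. The groups overlapped, at -0.11, and within slide 2 at 0.13.

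Tnfrsf10b encodes the TRAIL receptor of the mouse that signals death. The MOTS-c arrays 1 to 3 gave Tnfrsf10b values of 7.58, 7.95 and 8.14, against 7.90, 7.50 and 7.71 on vehicle arrays 1 to 3. MOTS-c 1 lay below vehicle 1 and 3, so the groups overlapped, and the difference was 0.19 ± 0.19 SE. Tnfrsf11a encodes RANK, which drives osteoclast formation and lymph node development. On MOTS-c 1 to 3, Tnfrsf11a stood at 10.31, 10.05 and 10.07, against 9.72, 10.17 and 10.08 on vehicle 1 to 3. Vehicle 2 and 3 lay within the MOTS-c range, and the difference was 0.16, and 0.02 without vehicle 1 and 0.06 within slide 2. Tnfrsf12a encodes the receptor of TWEAK. Tnfrsf12a read 8.02, 8.54 and 8.79 on the MOTS-c arrays, against 8.20, 8.28 and 7.85 on the vehicle arrays. MOTS-c 1 lay below vehicle 1 and 2, and the difference was 0.34 ± 0.23 SE. Tnfrsf19 encodes TROY, known mainly from epithelial and nerve tissue. Its brighter probe gave 6.95, 7.33 and 7.11 on the MOTS-c arrays, against 7.55, 6.94 and 7.30 on the vehicle arrays, with overlap, at -0.13. The second probe gave 5.12, 5.18 and 5.64 on the MOTS-c arrays, against 4.93, 4.81 and 4.68 on the vehicle arrays, without overlap, at 0.51 ± 0.18 SE.

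Fas, which encodes the death receptor of lymphocytes, had 3 probes whose differences were not of the same sign. The brightest, placed at chr19:34402164-34402223 on mm9, gave 10.63, 10.48 and 10.50 on the MOTS-c arrays, against 9.82, 10.35 and 10.30 on the vehicle arrays. The groups did not overlap, at 0.38 ± 0.18 SE (limma, adjusted p 0.217) and 0.22 without vehicle 1 and 0.24 within slide 2. The second probe is described in the authors' deposited table as Fas mRNA containing the long terminal repeat of an ETn retrotransposon, and the array design places it at chr4:40555124-40555183 on mm9, away from Fas. Its sequence is shown because it had the lowest difference of the Fas probes, and nothing in it is marked by capitals.
Fas, retrotransposon-linked probe: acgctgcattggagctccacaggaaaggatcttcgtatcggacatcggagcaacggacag
No other probe of the table shared a run of 18 bases with it. This probe gave 9.25, 9.59 and 9.28 on the MOTS-c arrays, against 10.75, 10.15 and 9.36 on the vehicle arrays. Vehicle 1 and 2 lay above the MOTS-c arrays and vehicle 3 among them, at -0.71 ± 0.33 SE. The third probe, for a transcript variant of Fas at chr19:34383733-34383792, gave 5.91, 6.05 and 5.72 on the MOTS-c arrays, against 6.06, 6.77 and 5.78 on the vehicle arrays, with overlap and a difference of -0.31.

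**Figure D4:**
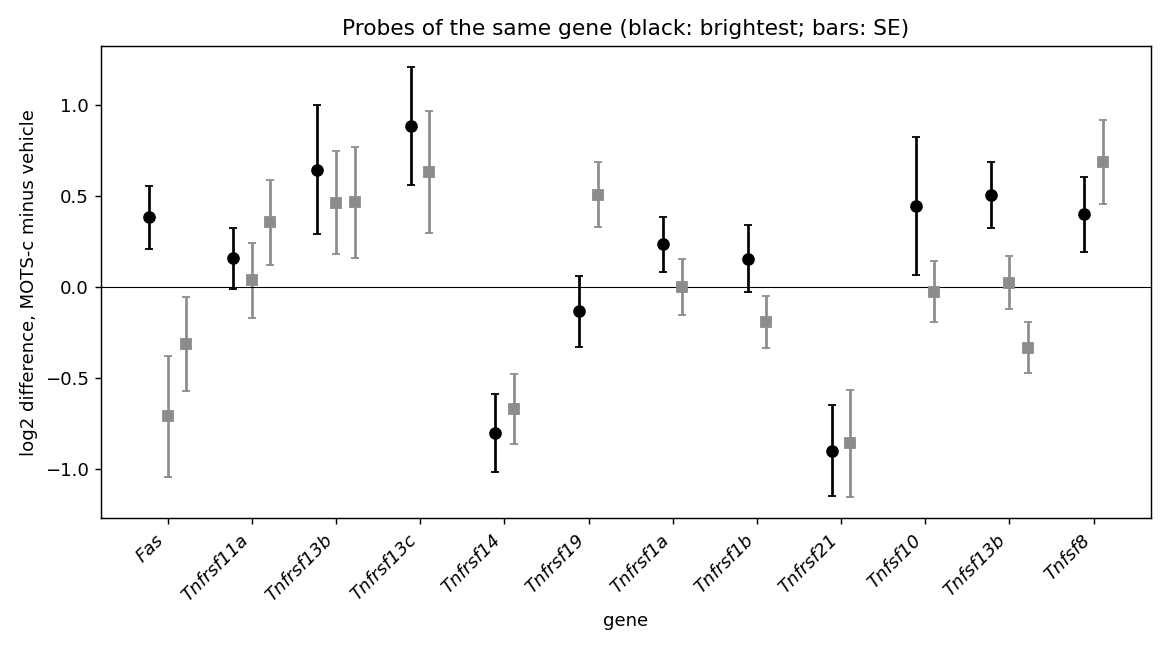
Log2 difference, MOTS-c minus vehicle, of each probe of the 12 family genes with several probes, with the brightest probe in black, the others in grey, and bars of 1 SE. Both probes of Tnfrsf14 and of Tnfrsf21 are below 0, and the probes of Fas, Tnfrsf19, Tnfrsf1b, Tnfsf10 and Tnfsf13b fall on both sides of 0.

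Of the 12 genes with several probes, 5 had probes of opposite sign, namely Fas, Tnfrsf19, Tnfrsf1b, Tnfsf10 and Tnfsf13b. In the test of the authors' deposited table, 3 of the 46 family probes had a p-value under 0.05, against 13.4% of all probes. They were the probe of Tnfrsf22, with a signed fold of 1.46 in the authors' deposited table, and both probes of Tnfrsf14, with signed folds of -1.74 and -1.59. The smallest adjusted p-value in the authors' deposited table was 0.37.

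Other genes of the family have symbols that fall outside the rule. Of 8 such genes, 4 were in the table, with 1 higher and 3 lower, and limma called 0 of them. Eda, the ligand ectodysplasin A, differed by -0.73 ± 0.23 SE, and Relt, a receptor of lymphoid tissues, by -0.54 ± 0.17 SE. Both were lower without overlap, as were 16.4% of all genes. Fasl, the ligand of Fas, differed by 0.63 ± 0.30 SE, and Ngfr, the low-affinity neurotrophin receptor, by -0.37 ± 0.60 SE, both with overlap. Ngfr read 5.9, 6.1 and 5.2 on MOTS-c 1 to 3, against 5.3, 7.6 and 5.4 on vehicle 1 to 3. Only vehicle 2 lay above the MOTS-c arrays.

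Of 45 listed adaptors and signal carriers of these receptors, all were in the table. Their mean was higher for 38 and lower for 7, the median difference was 0.37 and 0.24 without vehicle 1, and limma called 0. Groups did not overlap for 19 genes above and 4 below, against 18.3% and 16.4% of all genes. Among the higher means with the smallest p were Ikbkb, a kinase of the NF-kB pathway, at 0.51 ± 0.14 SE, and Nfkb2, an NF-kB subunit that acts below the lymphotoxin beta and BAFF receptors, at 0.74 ± 0.22 SE. Rnf31, of the linear ubiquitin ligase, differed by 0.69 ± 0.20 SE, and Map3k5, a stress kinase, by 0.59 ± 0.18 SE. Among the lower means, Tab3 and Tab1, partners of the kinase TAK1, differed by -1.24 ± 0.24 SE (limma, adjusted p 0.082) and -0.74 ± 0.19 SE. Ikbkg, the regulatory subunit of the same NF-kB kinase, differed by -0.48 ± 0.19 SE, and Tab2, another partner of TAK1, by -0.23 ± 0.13 SE.

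Markers of lymphocytes, which carry many of these genes, had higher means with MOTS-c, as did those of several other cell types. Of all genes of the table, 54.6% had a higher mean with MOTS-c. The MOTS-c arrays lay above all vehicle arrays for 18.3% of all genes and below them for 16.4%. All 8 T cell markers had a higher mean with MOTS-c and no overlap between groups. Their summed signal was 82176 to 90175 on the MOTS-c arrays, against 19742 to 59199 on the vehicle arrays, and was lowest on vehicle 1. All 8 B cell markers had a higher mean, 4 without overlap, with sums of 116226 to 130927 on the MOTS-c arrays, against 35604 to 106660 on the vehicle arrays. Of 7 NK cell markers 6 were in the table, all with a higher mean and 4 without overlap. The median was 1.02, or 0.47 without vehicle 1, and the sums were 17900 to 27066 on the MOTS-c arrays, against 3736 to 15137 on the vehicle arrays. All 8 markers of red cell precursors had a lower mean, 7 without overlap, with a median of -1.12, or -0.95 without vehicle 1, and sums of 137932 to 160423 on the MOTS-c arrays, against 257480 to 379634 on the vehicle arrays. All 6 markers of dividing cells had a lower mean without overlap, with sums of 107671 to 126067 on the MOTS-c arrays, against 187285 to 256206 on the vehicle arrays. Macrophage and monocyte markers had smaller differences, with 6 of 7 higher, none without overlap, a median of 0.20, or 0.15 without vehicle 1, and sums of 305173 to 325178 on the MOTS-c arrays, against 213845 to 297125 on the vehicle arrays. All 7 neutrophil markers had a higher mean, none without overlap, with a median of 1.08, or 0.98 without vehicle 1, and sums of 149244 to 464243 on the MOTS-c arrays, against 95093 to 339888 on the vehicle arrays. All 5 dendritic cell markers in the table, of 6 listed, had a higher mean, 1 without overlap, with a median of 0.65, or 0.23 without vehicle 1, and sums of 70126 to 81215 on the MOTS-c arrays, against 61044 to 79856 on the vehicle arrays. All 7 stroma markers had a higher mean, 2 without overlap, with a median of 0.35, or 0.29 without vehicle 1, and sums of 41776 to 48973 on the MOTS-c arrays, against 21710 to 35454 on the vehicle arrays. The NK cell marker Ncr1 was not in the table. The part of these cell types in the family's differences was not tested.

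**Figure D5:**
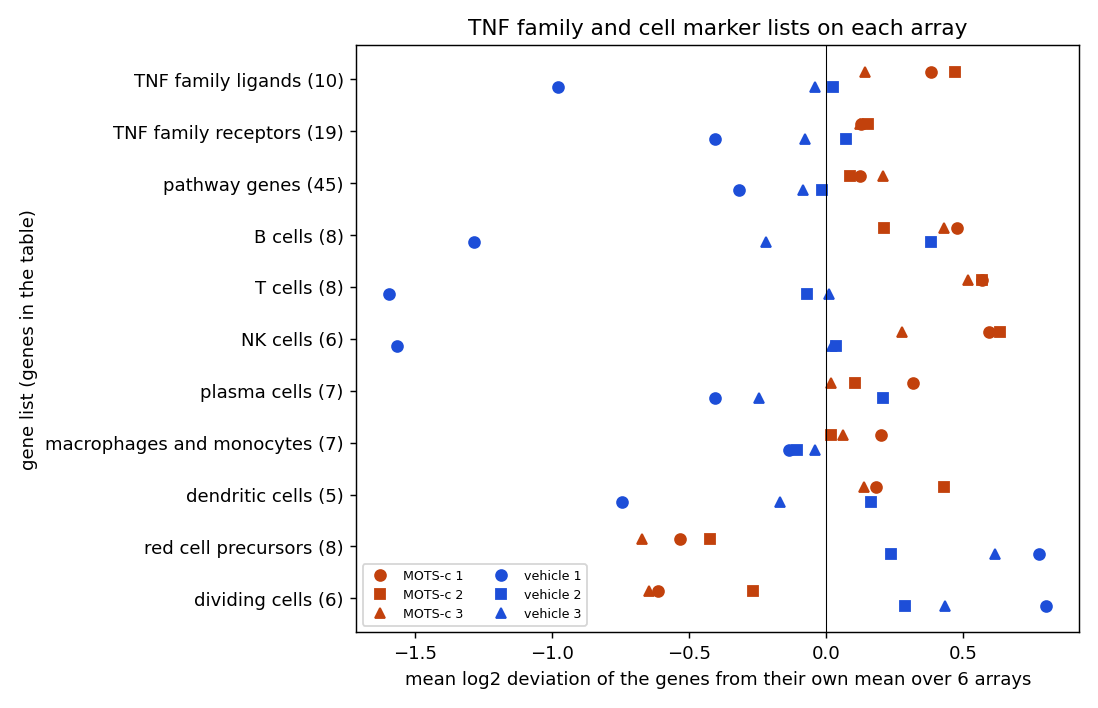
Mean deviation, in log2 units from each gene's mean over the 6 arrays, of the family ligands and receptors, the pathway genes and the marker lists on each array, with the MOTS-c arrays in orange just above the vehicle arrays in blue. Vehicle 1 is the lowest array for every list drawn except red cell precursors and dividing cells, with -0.98 for the ligands and -0.40 for the receptors, against -1.59 for the T cell markers.

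By array, the ligands deviated from their own means by 0.38, 0.47 and 0.14 on MOTS-c 1 to 3, against -0.98, 0.02 and -0.04 on vehicle 1 to 3. The receptors deviated by 0.13, 0.15 and 0.13 on the MOTS-c arrays, against -0.40, 0.07 and -0.08 on the vehicle arrays. The T cell markers deviated by 0.57, 0.57 and 0.52 on the MOTS-c arrays, against -1.59, -0.07 and 0.01 on the vehicle arrays. The ligands thus stood highest on MOTS-c 2 and lowest on vehicle 1, the array where the T cell markers were also lowest.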

How the data were processed

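Spleen RNA of 3 MOTS-c and 3 vehicle samples was measured on Agilent arrays with a single dye. Agilent Feature Extraction 11.0.1.1, named in the submitters' processing notes and, per the file headers, run on each scan, gave a background-subtracted processed signal intensity per spot, not yet normalized between arrays. In the authors' deposited table, log2 values of these signals stand for 31692 probes, and the values show that they were quantile normalized. The same table gives each probe a score, the authors' signed fold (MOTS-c over vehicle), and p-values of their own test; the software, the test and the filter are not given in the sources used here. The scanner signals matched those of the table for 99.6% to 99.7% of probes, within a relative tolerance of 0.001.

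The deposited log2 values were fitted with limma 3.58.1 in R 4.3.3 (lmFit, eBayes), two-sided, with Benjamini-Hochberg adjustment over all probes and a threshold of 0.05. A gene was read by its brightest probe. The fit was tested on simulated data. The smallest p of an exact permutation test of 3 arrays against 3 is 0.1, so none was used. Titles gave groups and replicate numbers; the descriptions number vehicle 3 and MOTS-c 3 differently.

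Members and lists were chosen with earlier results of these data known. Values by array are given for up to 15 members with the smallest p among those at an unadjusted p under 0.05, for a panel of well-known members, and for members with probes of opposite sign; others are given by their difference. Of the panel, Tnfsf13, Tnfsf11 and Tnfrsf11b were not in the table. Of the other family genes and the pathway genes, up to 4 per direction with the smallest p are named. Alternatives were another scaling, normexp background correction (offset 50, on the median spot and background signals, in place of the planned mean signal), no or a stricter filter, the mean of a gene's probes, slide and replicate number as blocks, and leaving out each array. Probe positions follow the array's mm9 design (per the file headers); the place of a probe in exons or untranslated regions was not determined.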

Additional observations from a re-analysis of the deposited data

How the results depend on the processing

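The family's median difference kept its direction under the alternatives that gave it a value, from 0.22 without vehicle 1 to 0.51. Of the 26 genes named by rule, 20 kept their sign under every alternative that gave them a value, of 14 run. The stricter filter gave no value for most of these genes. Some alternatives could not turn a sign: the replicate block and the stricter filter leave every difference as it was. The mean of a gene's probes does the same for genes with a single probe. The slide block gives the same differences as within slide 2, so these are not separate checks. Among all probes, limma called 1 with slide as a block, and 0 to 772 when an array was left out, with 772 without vehicle 2 and 39 without vehicle 3. Of the family genes it called 0 to 1 when an array was left out, the call being Tnfrsf14 without vehicle 2. Leaving out an array gave a ligand median, Tnfsf13os included, of 0.219 without vehicle 1 up to 0.719, and a receptor median of 0.202 without vehicle 1 up to 0.427 without vehicle 2. At an unadjusted p under 0.05 stood 6 of 30 family genes without the filter of the table, against 17.3% of all probes, 3 with slide as a block, against 9.83%, and 4 to 14 when an array was left out, against 15.1% to 29.9%. The family genes with all MOTS-c arrays above all vehicle arrays numbered 11 to 17 of 30 when an array was left out. Leaving out an array can keep or raise this count but cannot lower it, so the lower end was fixed beforehand. The shares of all genes are given only for the lowest and the highest count. The 11 came without vehicle 1, against 20.3% of all genes, and the 17 without vehicle 2, against 28.2%. With all 6 arrays there were also 11, against 18.3%. The sign of the difference turned for Fas (-0.213), Tnfrsf19 (0.188) and Tnfrsf1b (-0.018) with the mean of all probes, for Ltbr (0.134) and Tnfsf14 (-0.222) with slide as a block and within slide 2, and without vehicle 1 for Tnfrsf17 (leaving out an array gave -0.113 to 0.492) and Tnfrsf19 (-0.293 to 0.009); the cause was not tested. Within slide 2 and where a group lost arrays, a lone array is assumed to vary like the others. The stricter filter on dim probes kept 13 family genes, so no median is given under it. With the replicate block, the family median was 0.410 and 0 probes were called, as without it. At an unadjusted p under 0.05 then stood 10 of 30 family genes, against 21.1% of all probes. Same-numbered samples correlated at -0.176, -0.002 and -0.087 in their deviations, and differently numbered ones at -0.131 to 0.19. These values show no pairing by number, but with 3 arrays a group they cannot exclude it. The median of all probes was 0.012 with 75th percentile scaling and 0.021 with normexp, against 0.036 with the deposited values. With normexp, the difference of Tnfrsf22 was 0.21, against 0.54, that of Tnf 0.39, against 0.61, and that of Tnfsf9 0.57, against 0.86. The difference of Ltb was 1.50 with both.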

Other observations

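The scanner output held 12 further probes of family genes, matched by accession, that are outside the table. They include 5 genes with no probe in the table. The receptors Tnfrsf8 and Tnfrsf11b and the ligand Tnfsf4 were not well above background on any array. Tnfsf18, the ligand of Tnfrsf18, was well above background on 2 MOTS-c arrays and 1 vehicle array. Tnfsf11, the ligand of RANK, had a probe that was so on 2 MOTS-c and 2 vehicle arrays and another on 3 MOTS-c and 2 vehicle arrays. Of the 12 probes, 6 were not well above background on any array. Another 4, of Tnf, Tnfrsf22, Tnfsf11 and Tnfsf15, were so on 3 MOTS-c arrays and 2 vehicle arrays. No fold is given for these probes.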
